A study of Mus musculus with 21 samples.

Results

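Wild-type (WT) common lymphoid progenitors (CLPs) were compared with WT multipotent progenitors (MPPs) that carried a control retrovirus, on 6 of the 21 single-colour Agilent mouse arrays of the series. The 6 were chosen by their titles, 3 arrays for each cell type, with no measured value used. The CLPs came from bone marrow. Lineage-bearing cells had been partly depleted on magnetic beads, the remainder was stained for Sca-1, CD135 (Flt3), CD117 (c-kit) and CD127 (the IL-7 receptor) and sorted, and RNA was pooled from mice. The MPPs were WT cells gated as Lin-, c-kit+, Sca-1+ and Flt3mid and pooled from 4 mice in each experiment. They spent a night in SCF (50 ng/ml), IL-3 (5 ng/ml) and IL-6 (10 ng/ml), were spin infected with the control vector MSCV-GFP, and were sorted as GFP+ cells after 2 days under multilineage conditions. RNA of both cell types went through 2 rounds of amplification. A second set of 6 arrays, which shares no array with the first, held CLPs of mice deficient in both Bach1 and Bach2 (DD CLPs), sorted in the same way, and WT MPPs infected with a Bach2-GFP vector and cultured like the control-vector cells. The sources used here state neither the age nor the sex of the animals.

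CLPs are bone marrow cells that can still form B, T, NK and some dendritic cells and have largely lost myeloid potential. MPPs stand upstream and can form all blood lineages. On the way to B cells, the transcription factor network around E2A, Ebf1, Foxo1 and Pax5 opens the genes for V(D)J recombination and for the pre-B-cell receptor. On the myeloid side, PU.1 and the C/EBP factors act on granule protease genes, and SCF, IL-3 and IL-6 drive progenitors to divide and to form granulocytes, macrophages and mast cells. Bach1 and Bach2 are related repressors, of which Bach2 is known for restraining myeloid genes in lymphoid progenitors and Bach1 for repressing heme and antioxidant genes.

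Culture, infection and the cell of origin cannot be told apart in this comparison. Neither can the array slide or the scan day, because no slide and no scan day held both cell types. The labels do not say which mice gave which CLP pool, so p-values measure the spread between these samples. For these reasons a probe was called only where limma's Benjamini-Hochberg adjusted p was under 0.05, the difference was at least 4-fold and all 3 arrays of one group lay above all 3 of the other. Separation of the groups is therefore fixed by the rule for every called probe and adds nothing to the call. Levels are log2 signal minus the array's 75th percentile, so that 0 is the 75th percentile of that array, and levels of different probes cannot be set against each other. Differences are log2 values, CLPs minus MPPs, with their standard error and n = 3 arrays a group. Where no array of the lower group had the probe well above background, the fold is a bound ("at least"), taken against the higher of the probe's own signal and the lowest signal well above background. In bulk RNA, fewer cells of a type and less RNA per cell cannot be told apart.

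The promoters of genes that carry the comparison are shown first, because the surrogate light chain genes of the pre-B-cell receptor were called higher in CLPs and the enzymes of primary granules higher in MPPs. The windows are the 250 bases before each RefSeq transcript start (GRCm38.p6). Among the surrogate light chain genes, the windows of Igll1 (chr16:16863986-16864235, minus strand), Vpreb1 (chr16:16869256-16869505, minus strand) and Vpreb3 (chr10:75948050-75948299, plus strand) are written 5′ to 3′ with capitals at each E-box, CAGNTG, the motif of E2A and related factors, on either strand.
Igll1: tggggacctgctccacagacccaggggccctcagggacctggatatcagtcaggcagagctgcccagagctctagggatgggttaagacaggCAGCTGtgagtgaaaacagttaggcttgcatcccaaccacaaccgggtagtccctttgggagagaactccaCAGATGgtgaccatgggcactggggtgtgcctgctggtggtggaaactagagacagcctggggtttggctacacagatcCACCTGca
Vpreb1: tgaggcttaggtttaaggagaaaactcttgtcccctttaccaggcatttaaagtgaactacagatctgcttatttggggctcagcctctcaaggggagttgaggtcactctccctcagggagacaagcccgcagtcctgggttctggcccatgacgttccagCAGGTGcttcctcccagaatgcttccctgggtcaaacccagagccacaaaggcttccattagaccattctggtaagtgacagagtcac
Vpreb3: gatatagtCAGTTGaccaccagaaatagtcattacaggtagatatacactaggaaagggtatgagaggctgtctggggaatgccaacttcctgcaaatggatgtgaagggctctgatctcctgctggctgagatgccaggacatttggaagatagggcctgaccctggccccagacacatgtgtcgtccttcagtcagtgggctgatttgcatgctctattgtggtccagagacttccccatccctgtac

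Of the 8 called genes of the pre-B-cell receptor and B-cell surface list, 7 had a window in the table, and all 7 of those held an E-box, against 44.8% of 32851 promoter windows. Counted by gene, the motif was found in 1 of 3 recombination genes, 2 of 9 B-lineage factors and 3 of 7 primary granule genes. The B-lineage factors Ebf1, Bcl6 and Irf8 had 2 windows each, so their counts are not on the same footing as the share of windows. The windows of Mpo (chr11:87793534-87793783, plus strand), Elane (chr10:79886062-79886311, plus strand) and Prtn3 (chr10:79879417-79879666, plus strand) follow, with capitals at each GAGGAA, a PU.1 motif, on either strand.
Mpo: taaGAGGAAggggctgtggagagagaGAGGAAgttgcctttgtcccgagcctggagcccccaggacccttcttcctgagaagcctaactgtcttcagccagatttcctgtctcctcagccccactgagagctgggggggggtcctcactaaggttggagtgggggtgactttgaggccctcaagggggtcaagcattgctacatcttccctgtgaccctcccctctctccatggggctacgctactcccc
Elane: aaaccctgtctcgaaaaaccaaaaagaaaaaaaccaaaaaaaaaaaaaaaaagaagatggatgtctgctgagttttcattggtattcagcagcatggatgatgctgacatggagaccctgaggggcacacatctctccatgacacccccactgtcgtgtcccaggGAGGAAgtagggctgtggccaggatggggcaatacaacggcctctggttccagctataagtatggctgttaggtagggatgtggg
Prtn3: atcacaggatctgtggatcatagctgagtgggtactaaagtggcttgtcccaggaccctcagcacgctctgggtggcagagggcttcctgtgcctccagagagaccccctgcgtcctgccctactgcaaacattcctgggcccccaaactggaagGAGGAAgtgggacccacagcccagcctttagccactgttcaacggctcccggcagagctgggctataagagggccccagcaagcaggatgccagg

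GAGGAA or its reverse complement stood in 5 of 7 windows of called genes of the primary granule list, against 23.3% of all windows. That list includes the membrane protein gene Ms4a3 and Hdc, which also stands in the mast-cell list, and the windows of both held none (0). Counted by gene, it stood in 4 of 7 genes of the pre-B-cell receptor list, 1 of 3 recombination genes and 2 of 9 B-lineage factors. Another 3 motifs were searched on both strands: CCCNNGGG for Ebf1 (11.8% of all windows), TTNCNNAA for C/EBP factors (36.8%) and AACNG for Myb (74.2%). The Ebf1 motif was in 2 of 7 windows of the pre-B-cell receptor list and in none (0) of 7 primary granule windows, and the C/EBP motif in 1 of 7 of the latter. The Myb motif can overlap an E-box. Which motif is in capitals was chosen after the counts were seen, and a match is a description of the letters, not a site.

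Of the 6 arrays, the 75th percentile of signal lay between 2369 and 5127 intensity units and 69.8% to 80.0% of spots were well above background. One CLP array stood apart. WT CLP replicate 3 was high in genes of late granulocytes and of eosinophils. S100a8, a calcium-binding protein of neutrophils, stood at -7.67, -7.54 and 2.20 in CLP replicates 1, 2 and 3, and at 4.05, 3.42 and 3.78 in the MPPs. Camp, the cathelicidin of neutrophil granules, stood at -4.51, -3.27 and 4.17 in the CLPs and at -1.07, -3.24 and -1.41 in the MPPs. Prg2, the major basic protein of eosinophils, stood at -5.51, -3.62 and 3.17 against -8.08, -5.76 and -4.45. Prg2 and the other eosinophil genes shown were picked after their values were seen. Replicate 3 was thus the CLP array nearest to or above the MPPs for these genes, and its part in the results was not tested beyond leaving it out. Among the MPPs, control-vector replicate 3 lacked the Y-linked transcripts Eif2s3y (4.28, 4.47 and -8.92) and Ddx3y (1.11, 0.87 and -9.09). Replicate 3 of the Bach2-vector MPPs lacked them too, at -7.42 for Eif2s3y and -9.32 for Ddx3y, whereas replicates 1 and 2 of both vectors had them. Whether same-numbered MPP arrays of the 2 vectors came from the same mice was not tested. Of 5 sex-linked genes 3 were tested and none (0) was called, while Kdm5d and Uty were not tested. A dimmer probe of Xist, which was not called either, stood at -1.41, -2.01 and -0.75 in CLPs and at -5.51, -5.39 and -1.57 in MPPs. The part of donor sex in the comparison was not tested.

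The labels were checked against marker genes. Il7r and Flt3, whose proteins are in the CLP gate, were higher in CLPs by 9.92 and 3.59. Cells were chosen by these proteins, and Flt3 was in the MPP gate too, so their RNA is no independent check of the labels. Another Flt3 probe, at 1.33, was not called. Kit (-0.64 ± 0.35) and Ly6a (-0.10 ± 0.42), gated in both cell types, did not pass the test. The MPP markers Cd34 (0.65 ± 0.38), Meis1 (1.06 ± 0.32) and Cd48 (-0.38 ± 0.36) were above background on all 6 arrays and did not pass either. The stem-cell and multipotency list had 2 of 27 genes called higher in CLPs and 4 in MPPs, and its median difference was 0.40. Of the markers of other cells, the T-cell gene Cd3g, the NK receptor Ncr1 and the B-cell gene Ms4a1 were each above background on 1 of 3 CLP arrays and on none (0) of the MPP arrays, and were not tested. Of the granulocyte markers, Mpo, Elane, Prtn3, Ctsg and S100a8 were called higher in MPPs. Ltf and Camp were not called, and Ngp was not tested. Of the monocyte and macrophage markers, Ccr2, Cd14 and Adgre1 were called higher in MPPs, while Csf1r and F13a1 were not called. The NK-cell markers Klrd1 and Klrb1c were called higher in CLPs. Values of these tested markers are given under each group.

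Across all 42461 probes tested, 2014 were called higher in WT CLPs (4.74% of those tested) and 1523 higher in control-vector MPPs (3.59%). An adjusted p under 0.05 alone was reached by 6773 probes, 3395 higher in CLPs and 3378 higher in MPPs. Full separation alone was reached by 6969 probes with CLPs above and 8477 with MPPs above. By the brightest probe of each gene, 998 of 16724 named genes tested were called higher in CLPs and 869 higher in MPPs. In 268 and 238 of these genes the difference was at least 16-fold. Over all called probes the median folds were 7.88 and 6.97. In 97 of the CLP genes and 68 of the MPP genes, the probe was not above background on any array of the other cell type. The median difference over all probes was -0.15, with 42.4% above 0. Over the named genes with 1 probe each, as in the lists, it was -0.19, with 41.4% above 0. List medians and list counts are read beside the values of the named genes, and a count near their share is no result about the list. Without WT CLP replicate 3, 1670 probes were called higher in CLPs and 1484 higher in MPPs, and without control-vector replicate 3 the counts were 2107 and 1298.

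The machinery of V(D)J recombination gave the widest gap. Rag1, a subunit of the recombinase, stood at 3.72, 4.24 and 3.99 in the 3 CLP arrays and at -9.22, -7.80 and -7.33 in the MPPs, where it was not above background on any array. That was a difference of 12.10 ± 0.50, at least 2288-fold, with an adjusted p of 3.29e-05 by limma, the largest measured difference of any called named gene. Another Rag1 probe differed by 5.89 and was called as well. At both probes the groups were far apart on every array. Rag2, its partner subunit, stood at 2.56, 2.17 and 2.92 in CLPs and at -6.28, -4.72 and -4.58 in MPPs, a 214-fold difference (7.74 ± 0.50, adjusted p = 7.99e-05). Dntt, the terminal transferase that adds bases at the joins, stood at 7.01, 7.25 and 6.41 against -1.93, -1.22 and -1.51, a 348-fold difference. All 3 genes of the list were thus called, at a median of 8.44. In DD CLPs against Bach2-vector MPPs they were called again, by 11.76, 7.01 and 8.45. With any 1 WT CLP array left out, the brightest Rag1 probe was above background on too few arrays to be tested. Without WT CLP replicate 3, Rag2 and Dntt were still called.

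Of 15 factors of the B lineage, 11 were called higher in CLPs and none (0) higher in MPPs, with a median of 2.62. The 11 include Egr1, which also stands in the list of immediate early genes given below. Ebf1, which with E2A opens the B-cell programme, stood at 2.34, 0.70 and 0.83 in CLPs and at -9.18, -7.89 and -7.74 in MPPs, not above background on any MPP array. The difference of 9.56 ± 0.56 was at least 357-fold (adjusted p = 5.8e-05). Pax5, which acts after Ebf1 and seals B-cell commitment, did not move with it. It stood at -5.41, -5.59 and -5.92 in CLPs and at -5.30, -4.89 and -4.62 in MPPs (-0.70 ± 0.34, adjusted p = 0.209), so the CLPs lay at or below the MPPs. Pou2af1, the co-activator OCA-B, was higher by 5.88 ± 0.37, and Spib, an Ets factor of B cells and plasmacytoid dendritic cells, by 5.34 ± 0.52. Foxo1, which acts on Rag and Il7r genes, was higher by 2.87 ± 0.33, and the zinc finger factor Klf2 by 4.13 ± 0.50. Irf8, shared by B cells and dendritic cells, was higher by 2.39 ± 0.34. Bcl6, at 2.62 ± 0.63, was called with all arrays but not without WT CLP replicate 1 or 3 or control-vector replicate 2 or 3. Nfatc1, at 2.02 ± 0.43, had another probe with a difference of -0.06. Without WT CLP replicate 1, 7 factors were called rather than 11, and without replicate 3 the count was 9. With any 1 WT CLP array left out, Ebf1 was above background on too few arrays to be tested, which lowers both counts.

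Bach2 itself was among these factors. It stood at 3.46, 1.49 and 2.38 in WT CLPs and at -3.87, -2.96 and -2.15 in control-vector MPPs, a 43.4-fold difference (5.44 ± 0.60, adjusted p = 0.00075). All CLP arrays lay above all MPP arrays. Bach1 stood at 1.87, 1.96 and 2.17 in CLPs and at 2.15, 1.43 and 2.06 in MPPs, and the groups overlapped (0.12 ± 0.34, adjusted p = 0.85). In the second set, where the CLPs are Bach-deficient and the MPPs carry a Bach2 vector, the Bach2 probe stood at 1.17, 0.10 and -0.27 in DD CLPs and at -0.92, -2.03 and -2.57 in Bach2-vector MPPs (2.17 ± 0.55, adjusted p = 0.0548) and was not called. DD CLPs lay below all WT CLPs for this probe, yet above the cells with the Bach2 vector, which overlapped the control-vector cells. Bach1 stood at 2.41, 1.14 and 0.88 in DD CLPs, overlapping WT CLPs. Whether these probes lie in the deleted or the vector-borne parts of the genes was not tested, so they do not check the labels of the second set.

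Of 24 genes of early lymphoid priming, 9 were called higher in CLPs and none (0) in MPPs, with a median of 1.38 and 20 of 24 above 0. Blnk, the adaptor that links the pre-B-cell receptor to its kinases, stood at 6.18, 5.25 and 5.00 in CLPs and at -4.44, -4.62 and -4.12 in MPPs, a 934-fold difference (9.87 ± 0.40). Ly6d, a surface protein that marks CLPs turning to the B lineage, stood at 6.82, 6.36 and 5.69 against -2.77, -3.11 and -1.08 (8.62 ± 0.57). The groups were far apart in both genes. Ccr9, a chemokine receptor that guides progenitors to the thymus, was higher by 5.60 ± 0.37, and Ets1, a factor of lymphoid cells, by 5.27 ± 0.45, although another Ets1 probe, at 0.73, was not called. Lax1, an adaptor of lymphocyte signalling, was higher by 4.84 ± 0.32, the chromatin organiser Satb1 by 3.31 ± 0.33 and Bcl11a, a factor that CLPs need, by 2.62 ± 0.39. Tcf3, which encodes E2A, differed by 0.06 ± 0.38, and by -1.48 at another probe, which was not called either. The related Tcf4 was not called by its brightest probe (0.68), but another of its probes was (3.06). Ikzf1 was called by its brightest probe (2.19 ± 0.33), while another of its probes gave -0.99.

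**Figure D1:**
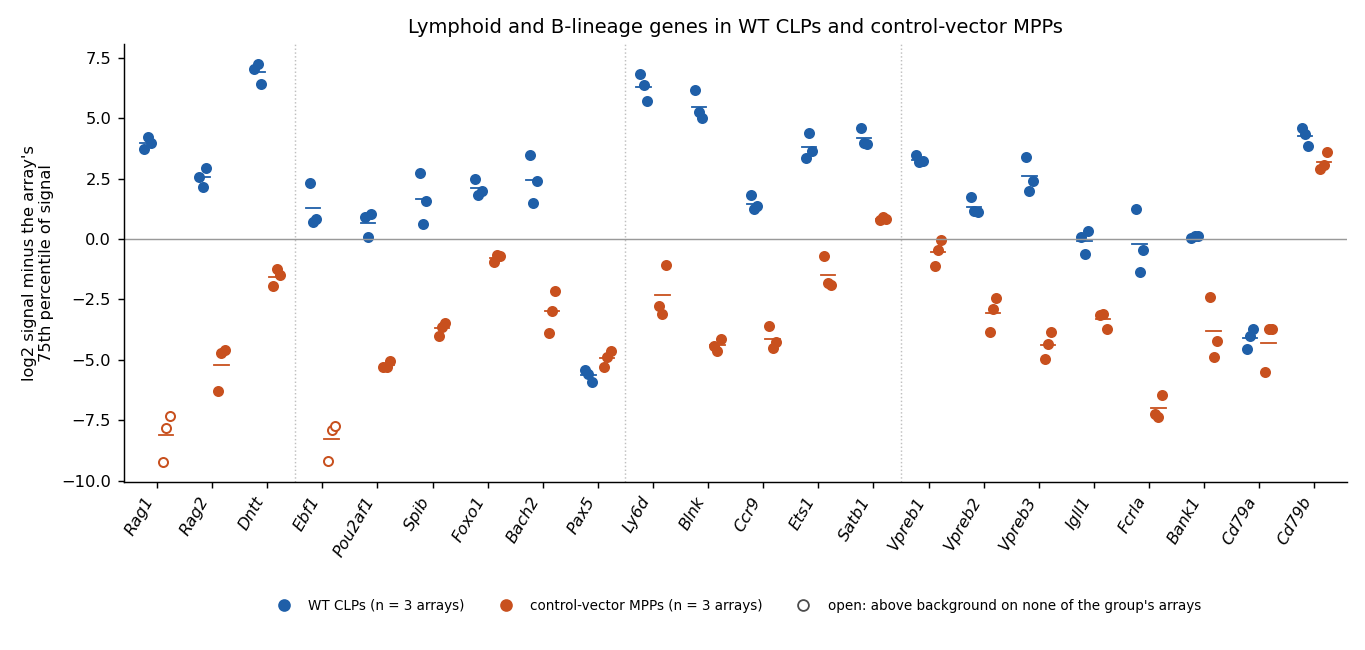
Level of lymphoid and B-lineage genes on each array, as log2 signal minus the array's 75th percentile (vertical axis), for WT CLPs (blue) and control-vector MPPs (orange), 3 arrays each with a short line at the mean. Open points mark genes above background on none of the group's arrays, as Rag1 and Ebf1 in MPPs. CLPs lie above MPPs for all genes shown up to Bank1 other than Pax5, where they lie below, and the groups overlap for Cd79a.

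Among 25 tested genes of the pre-B-cell receptor and the B-cell surface, 8 were called higher in CLPs and none (0) in MPPs, with a median of 1.05. The surrogate light chain genes made up 4 of the 8. Igll1, which encodes lambda5, stood at 0.10, -0.63 and 0.33 in CLPs and at -3.14, -3.09 and -3.73 in MPPs, a 9.53-fold difference (3.25 ± 0.38, adjusted p = 0.00104). Vpreb1, its surrogate light chain partner, stood at 3.46, 3.18 and 3.22 against -1.10, -0.47 and -0.03 (3.82 ± 0.37), and the near-identical Vpreb2 differed by 4.39 ± 0.43, so that signal of the pair cannot be divided with certainty. Vpreb3 stood at 3.41, 1.98 and 2.41 against -4.94, -4.33 and -3.85, a 126-fold difference (6.97 ± 0.47). For these genes every CLP array lay above every MPP array, as a call requires. The promoter windows of Igll1, Vpreb1 and Vpreb3 are printed above. The Fc receptor-like gene Fcrla was higher by 6.81 ± 0.63, with 1 of 3 MPP arrays above background, the kinase gene Blk by 4.55 ± 0.68, Cd72 by 4.35 ± 0.49 and the adaptor Bank1 by 3.93 ± 0.59.

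The signalling chains of the B-cell receptor were not called: they differed by 0.22 ± 0.53 for Cd79a (adjusted p = 0.824) and by 1.05 ± 0.36 for Cd79b (adjusted p = 0.085). Cd74, the invariant chain of MHC class II, was at -2.41 ± 0.71 with an adjusted p of 0.053 and is called higher in MPPs under several other settings, control-vector replicate 2 left out among them. Of 10 MHC class II genes, H2-Ob, part of a peptide-loading modulator, was called higher in CLPs (6.34 ± 0.40) and H2-Aa, a class II alpha chain, higher in MPPs (-3.21 ± 0.49). H2-Eb1, at -2.17 ± 0.36, was called too, but not without control-vector replicate 3 or with quantile normalization.

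Genes known from T cells were also higher in CLPs, with 10 of 20 called, 2 called higher in MPPs and a median of 2.00. Hes1, the classical Notch target, stood at 2.60, 1.43 and 0.20 in CLPs and at -8.99, -4.92 and -6.98 in MPPs, with 1 MPP array above background (8.37 ± 0.98). Cd5 (3.76 ± 0.37), the kinase gene Lck (3.64 ± 0.32), Cd28 (3.54 ± 0.46) and Tcf7 (3.53 ± 0.35), a factor downstream of Notch, were called as well. Gata3, which T cells and innate lymphoid cells require, was higher by 2.40 ± 0.53. Of the T-cell receptor complex, Cd3e was not called. It stood at -1.86, -1.01 and -1.26 in CLPs and at -1.86, -1.15 and -1.23 in MPPs (0.04 ± 0.37), with full overlap. Cd3d (-0.41 ± 0.37) was not called either. Cd3g and Cd247 were not tested, and Cd247 was above background on 2 CLP arrays and on none (0) of the MPP arrays. Thy1 (-4.17 ± 0.40) and Il2ra (-3.05 ± 0.46), the IL-2 receptor alpha chain, were higher in MPPs. Without WT CLP replicate 3 the list had 7 genes called higher in CLPs and a median of 2.45.

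Of 18 tested NK and innate lymphoid genes, 6 were called higher in CLPs and 1 in MPPs, with a median of 0.64. The receptor genes Il18r1 (6.88 ± 0.99, with 2 MPP arrays above background) and Il2rb (5.15 ± 0.35), which carries IL-2 and IL-15 signals, led. Klrd1, which encodes CD94, stood at 5.44, 3.57 and 2.82 in CLPs and at -1.72, -0.76 and 1.02 in MPPs (4.43 ± 0.83). Klrb1c, higher in CLPs by 3.71 ± 0.52, encodes NK1.1, an antigen of the partial depletion. The part of NK cells in these differences was not tested, and the NK marker Ncr1 was above background on 1 CLP array. Gzmb, which encodes granzyme B, stood at -6.10, -5.06 and -5.40 in CLPs and at -3.35, 3.89 and 1.97 in MPPs, so control-vector replicate 1 was near the CLPs. Its call is lost when any 1 CLP array or control-vector replicate 3 is left out. Among dendritic-cell genes 6 of 16 were called higher in CLPs and 1 in MPPs. Clec9a, a receptor of cross-presenting cells (3.53 ± 0.46), and Ccr7, the lymph-node homing receptor (3.30 ± 0.52), were higher in CLPs, and Batf3, a factor of the same dendritic cells, was higher in MPPs (-5.68 ± 0.48). Siglech, a marker of plasmacytoid cells, was at 0.33 by its brightest probe, while its other probe stood at 5.07, 3.12 and 3.67 in CLPs and at -4.17, -3.88 and -3.37 in MPPs and was called (7.76). The probes of Siglech thus disagree. Zbtb46 was at 0.02 ± 0.34.

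On the myeloid side, the primary granule list had 7 of 14 tested genes called higher in MPPs and none (0) in CLPs. All 14 differences were below 0 and the median was -1.84. The list includes the membrane protein gene Ms4a3 and Hdc, which also stands in the mast-cell list. Prtn3, proteinase 3, stood at -2.88, -2.24 and -1.87 in CLPs and at 5.16, 5.54 and 5.73 in MPPs, a 224-fold difference (-7.81 ± 0.38, adjusted p = 3.48e-05). Ms4a3, a membrane protein of granulocyte-monocyte progenitors, stood at -5.27, -3.35 and -1.91 against 6.13, 6.56 and 6.73, a 1011-fold difference (-9.98 ± 0.74). Elane, neutrophil elastase, stood at 0.49, 0.56 and 0.86 against 6.24, 4.36 and 4.54 (-4.41 ± 0.51). The 2 cell types did not overlap in any of the 3, as a call requires. Cathepsin G (Ctsg) was higher in MPPs by a log2 difference of -4.50 ± 0.40, histidine decarboxylase (Hdc) by -3.61 ± 0.34 and the activating protease Ctsc by -2.53 ± 0.39. Mpo, myeloperoxidase, was high in both: 4.72, 4.53 and 4.55 in CLPs and 6.77, 6.90 and 6.75 in MPPs. Its 4.62-fold difference (-2.21 ± 0.30, adjusted p = 0.00198) fell to -1.81, under 4-fold, with quantile normalization. Lyz2 (-1.48 ± 0.50, adjusted p = 0.0829) and Cst7 (-0.97 ± 0.33, adjusted p = 0.0848) did not pass.

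Genes of secondary and tertiary granules, which neutrophils make later, gave a count that turned on one array. Of 18 tested, 5 were called higher in MPPs with all arrays, 8 without WT CLP replicate 3 and 3 without replicate 2. Mmp8, neutrophil collagenase, stood at -7.95, -8.22 and -2.11 in CLPs, with 1 array above background, and at 3.32, 1.70 and 2.11 in MPPs (-8.47 ± 1.44, and -10.46 without replicate 3). S100a8 differed by -8.08 ± 2.28 with an adjusted p of 0.0454, and by -11.35 without that array. Its call is lost when CLP replicate 1 or 2 or any 1 MPP array is left out, and under quantile normalization. S100a9, its partner, had values of -6.21, -6.33 and 3.96 in CLPs and 4.90, 4.82 and 4.57 in MPPs and was not called (-7.62 ± 2.37, adjusted p = 0.0639), but was without replicate 3 (-11.03). Lcn2, lipocalin 2, was called at -4.99 ± 1.05, but not without CLP replicate 2. Ltf, lactoferrin, stood at -4.01, -5.84 and 1.50 in CLPs and at -0.38, -4.17 and -2.56 in MPPs, so the groups overlapped (-0.41 ± 1.72, and -2.55 without replicate 3). Stfa1, a cysteine protease inhibitor, stood at -9.26, -8.34 and -6.11 against 3.68, 2.26 and 2.34, a measured difference of -10.66 ± 0.77. With 1 CLP array above background, its size rests on signal below background. Its near-identical relatives Cstdc4 and Cstdc5 followed at -10.27 and -10.06, so signal within this family is uncertain.

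**Figure D2:**
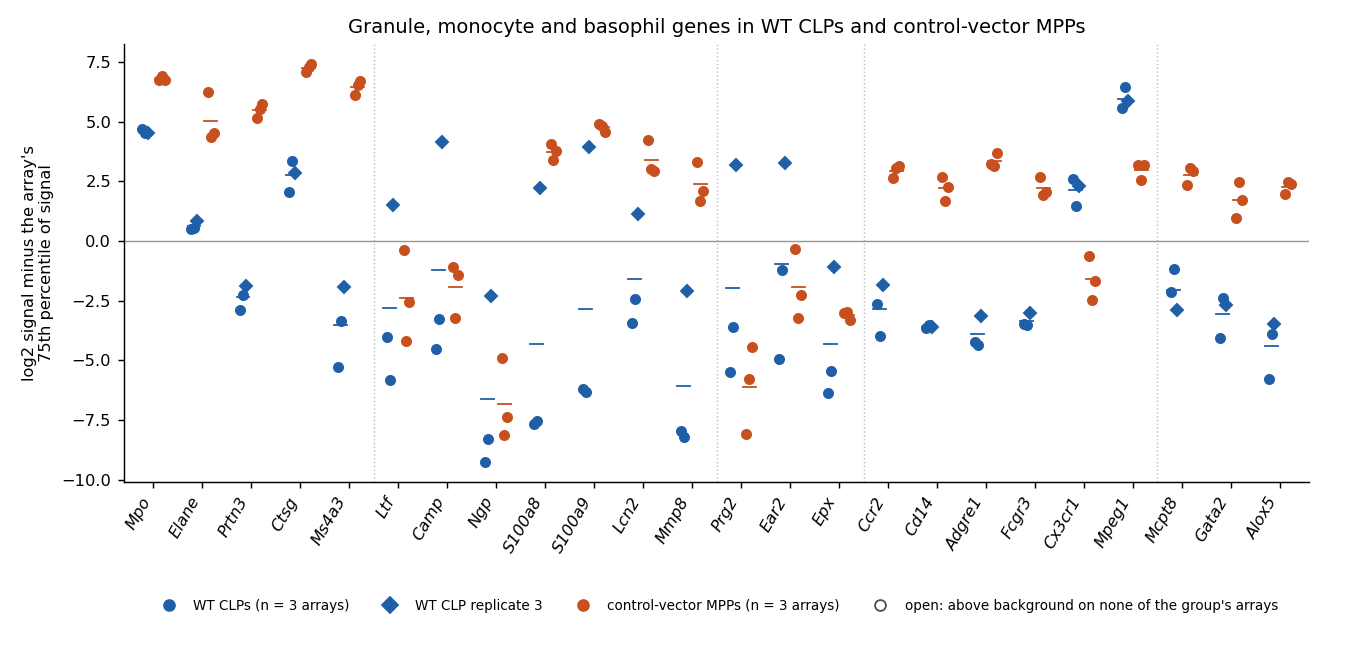
Level of granule, eosinophil, monocyte and basophil genes on each array (log2 signal minus the array's 75th percentile) for WT CLPs (blue) and control-vector MPPs (orange), with a short line at each mean and diamonds for WT CLP replicate 3. The diamond lies with the other CLP arrays for primary granule genes and far above them for Ltf to Epx, as for S100a8 at 2.20 against -7.67 and -7.54.

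Monocyte and macrophage genes were called higher in MPPs in 14 of 29 cases and higher in CLPs in 2, with a median of -1.69. Cd14, the co-receptor for lipopolysaccharide, stood at -3.63, -3.51 and -3.62 in CLPs and at 2.70, 1.69 and 2.27 in MPPs, a 56.2-fold difference (-5.81 ± 0.36, adjusted p = 6.77e-05). Adgre1, which encodes F4/80, stood at -4.23, -4.37 and -3.13 against 3.25, 3.16 and 3.70, a 155-fold difference (-7.28 ± 0.41). Ccr2, the receptor for monocyte egress, stood at -2.64, -3.99 and -1.86 against 2.64, 3.07 and 3.14 (-5.78 ± 0.53). All MPP arrays were above all CLP arrays in each, as a call requires. Lipoprotein lipase (Lpl) differed by -9.57 ± 0.75, with 2 CLP arrays above background, and the C-type lectins Clec4e and Clec4d by -6.53 ± 0.35 and -6.38 ± 0.37. The galectin Lgals3 (-5.62 ± 0.61), the Fc receptor Fcgr3 (-5.56 ± 0.35) and the chemokines Ccl6 (-4.91 ± 0.41) and Ccl9 (-4.73 ± 0.34) were called too. Cx3cr1, the fractalkine receptor, ran the other way, at 2.60, 1.48 and 2.31 in CLPs and -0.61, -2.46 and -1.67 in MPPs (3.71 ± 0.53), as did the perforin-like gene Mpeg1 (2.98 ± 0.37). Csf1r, the receptor for M-CSF, was at 0.95 ± 0.50 (adjusted p = 0.244) and F13a1 at 0.27 ± 0.60. Without WT CLP replicate 3, 13 were called higher in MPPs and 2 in CLPs.

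Of 21 myeloid factors, 7 were called higher in MPPs and 6 in CLPs, with a median of -1.17. Tfec, a relative of Mitf found in macrophages, stood at -3.03, -2.18 and -2.74 in CLPs and at 4.61, 4.84 and 5.39 in MPPs (-7.60 ± 0.38, adjusted p = 3.65e-05). Cebpe, the factor of late granulocytes, stood at -2.29, -3.01 and -0.65 against 4.71, 3.88 and 3.91 (-6.15 ± 0.59), and Cebpa, which starts granulocyte formation, at -3.19, -1.66 and -1.30 against 3.34, 1.22 and 0.89 (-3.87 ± 0.72). The groups were apart for all 3 factors. Bhlhe40 (-3.96 ± 0.58) and Cebpd (-2.59 ± 0.39) were also called. Spi1, which encodes PU.1, was at -3.54 ± 0.98 with an adjusted p of 0.0434, and its call is lost when CLP replicate 1 or 2 or control-vector replicate 1 is left out, among other settings. Those higher in CLPs were Egr2 (3.25 ± 0.65), Klf4 (2.64 ± 0.57), Fos and Jun beside Klf2 and Irf8. Receptors for myeloid cytokines differed little in count. Of 15, Csf2rb, the shared beta chain for IL-3, GM-CSF and IL-5, was the 1 called (-3.11 ± 0.40, and -1.83 by another probe that was not called), and the list median was -0.05, or 0.11 with quantile normalization.

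Among mast-cell, basophil and eosinophil genes, 6 of 22 were called higher in MPPs and 2 in CLPs, with a median of -0.70. Alox5, 5-lipoxygenase, stood at -5.78, -3.90 and -3.49 in CLPs and at 1.97, 2.49 and 2.38 in MPPs (-6.67 ± 0.58). Mcpt8, a protease of basophils, differed by -4.84 ± 0.48 and Gata2, which basophils and mast cells need, by -4.76 ± 0.55. Ms4a2, the beta chain of the IgE receptor, was not above background on any CLP array and was at least 8.78-fold higher in MPPs. These genes were separated on every array, whereas the mast-cell protease Cpa3 (-1.56 ± 0.72, adjusted p = 0.187) and Fcer1a (0.67 ± 1.30) were not called. Of the 2 genes called higher in CLPs, Prss34 is not called without WT CLP replicate 1 or 2 or any 1 MPP array, and Alox15 not without control-vector replicate 1 or 2. Without WT CLP replicate 3, the list had 1 gene called higher in CLPs and a median of -1.30. Of 25 erythroid and megakaryocyte genes, 3 were called higher in CLPs and 4 in MPPs. Rhd (4.65 ± 0.60) and the platelet glycoprotein Gp9 (3.11 ± 0.47) were higher in CLPs. Platelet factor 4 (Pf4) stood at -6.37, -6.80 and -0.64 in CLPs and at 2.96, 3.49 and 3.02 in MPPs (-7.76 ± 1.40), another gene in which CLP replicate 3 was high, and was not called with the slide as a random block. The erythroid markers Klf1 (-0.61 ± 0.43), Epor (0.35 ± 0.71) and Hba-a1 (2.49 ± 0.75, adjusted p = 0.0575) were not called.

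Genes that respond to stimulation and growth differed beside the lineage genes, and cell type cannot be told apart from culture and infection for them. Immediate early genes, which are switched on within minutes of a stimulus or of handling, were called higher in CLPs in 9 of 20 cases and higher in MPPs in 1, with a median of 1.30. Egr1 stood at 6.25, 6.86 and 5.47 in CLPs and at -1.28, 0.17 and -0.49 in MPPs (6.72 ± 0.50). Fosb (5.62 ± 0.52), the nuclear receptor Nr4a1 (5.32 ± 0.43), Fos (5.11 ± 0.43), the RNA-decay factor Zfp36 (4.02 ± 0.49) and the phosphatase Dusp1 (3.76 ± 0.38) were called with it. Fosl1 was the exception, higher in MPPs (-3.76 ± 0.47). The BMP and growth-factor target Id1, from the list of cytokine responses, stood at -2.06, -0.55 and -2.62 in CLPs and at 4.84, 5.64 and 5.90 in MPPs (-7.20 ± 0.56).

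Interferon-response genes were called higher in CLPs in 10 of 21 cases, with a median of 2.25, and Cxcl10 was called higher in MPPs (-2.01 ± 0.49), though not without WT CLP replicate 1 or 3 or control-vector replicate 1 or 3. Ifi44 stood at 0.34, -0.28 and 0.32 in CLPs and at -6.54, -8.24 and -6.92 in MPPs, with 1 MPP array above background (7.36 ± 0.48). Gbp4, a guanylate-binding protein, stood at 3.29, 1.65 and 3.03 against -3.47, -3.78 and -2.39 (5.87 ± 0.54). Neither gene's groups overlapped, as a call requires. Oasl1 (4.06 ± 0.49), Oasl2 (3.39 ± 0.39), the ubiquitin-like Isg15 (3.01 ± 0.39) and its protease Usp18 (2.65 ± 0.40) were also called. Ifit3, at 4.02 ± 0.40, was called but not with the slide as a random block.

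Of 25 heme, iron and antioxidant genes, 11 were called higher in MPPs and none (0) in CLPs, and all 25 differences were below 0, with a median of -1.79. Slc7a11, the cystine transporter, stood at -8.55, -8.34 and -9.27 in CLPs, not above background on any array, and at 0.41, -0.86 and 0.02 in MPPs, at least 121-fold higher (-8.58 ± 0.44). Gclm, a subunit of the enzyme that makes glutathione, stood at -1.56, -0.86 and -0.85 against 3.07, 3.83 and 3.58 (-4.58 ± 0.37). Hmox1, heme oxygenase 1 and a textbook Bach1 target, stood at -1.64, -1.48 and -1.76 against 1.87, 0.65 and 0.43 (-2.61 ± 0.43). In all 3 the MPP arrays were above the CLP arrays, and another Hmox1 probe, at -1.52, was not called. Nqo1 (-5.90 ± 0.47, with 1 CLP array above background), glutathione reductase Gsr (-3.19 ± 0.38), the pentose phosphate enzyme G6pdx (-3.08 ± 0.42) and the sulfiredoxin Srxn1 (-3.04 ± 0.37) were called too. Me1, at -4.71 ± 0.43, was not called with the slide as a random block. The ferritin chains Fth1 (-0.25 ± 0.34) and Ftl1 (-0.49 ± 0.33) did not pass.

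Amino-acid response genes, targets of Atf4, were called higher in MPPs in 7 of 17 cases, with a median of -1.94. Chac1, which degrades glutathione, stood at -2.71, -3.13 and -3.74 in CLPs and at 2.51, 3.32 and 4.06 in MPPs (-6.49 ± 0.47), and asparagine synthetase (Asns) differed by -5.09 ± 0.36. Trib3 (-3.89 ± 0.61), the folate enzymes Mthfd2 (-3.32 ± 0.48) and Shmt2 (-3.08 ± 0.39) and the transporter Slc7a5 (-2.88 ± 0.34) followed, of which Slc7a5 had another probe at -0.40 that was not called. Of 20 genes of glycolysis and hypoxia 6 were called higher in MPPs, at a median of -1.22, led by phosphofructokinase Pfkp (-3.39 ± 0.36), the lactate exporter Slc16a3 (-3.28 ± 0.50) and pyruvate kinase Pkm (-2.63 ± 0.35). Another Pfkp probe, at -1.38, was not called. Ribosome biogenesis genes gave 7 of 20 at a median of -1.86, but 3 with quantile normalization and 4 without WT CLP replicate 1, with the helicase Ddx21 at -2.49 ± 0.30, and at -1.33 by a probe that was not called. Of 20 cholesterol synthesis genes 2 were called higher in MPPs, Mvd (-2.51 ± 0.41) among them, and the count was 4 without WT CLP replicate 2 and 1 without control-vector replicate 2.

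Genes of the cell cycle were not called by their brightest probes. By limma none (0) of 30 was called in either direction, 3 had an adjusted p under 0.05 and 12 an unadjusted p under 0.05, all of them higher in MPPs. With WT CLP replicate 2 or 3 or control-vector replicate 3 left out, 1 was called higher in MPPs. The median was -0.58, and 27 of 30 differences were below 0. Mki67, the Ki-67 antigen, stood at 4.69, 4.24 and 4.80 in CLPs and at 5.02, 4.98 and 4.91 in MPPs (-0.39 ± 0.32, adjusted p = 0.456). Ccne1, cyclin E1, stood at 2.92, 3.57 and 3.26 against 4.85, 5.19 and 5.02 (-1.77 ± 0.33, adjusted p = 0.00867), apart on all arrays but under 4-fold. Other, dimmer probes of Ccne1 (-2.02) and cyclin B1, Ccnb1 (-2.57 and -2.80), were called higher in MPPs. Among 14 inhibitors of the cycle and p53 targets, 2 were called higher in CLPs, of which the anti-proliferative Btg2 was at 3.21 ± 0.45. The other, Sesn1, was at 2.14 ± 0.37 and is lost without WT CLP replicate 1 or control-vector replicate 1. With control-vector replicate 1 left out 1 was called, and with quantile normalization 4 were. By other, dimmer probes the inhibitor Cdkn1a was called higher in MPPs (-3.20 ± 0.42) and Btg1 higher in CLPs (3.95 ± 0.52). Their brightest probes, at -0.57 and 1.23, were not called.

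**Figure D3:**
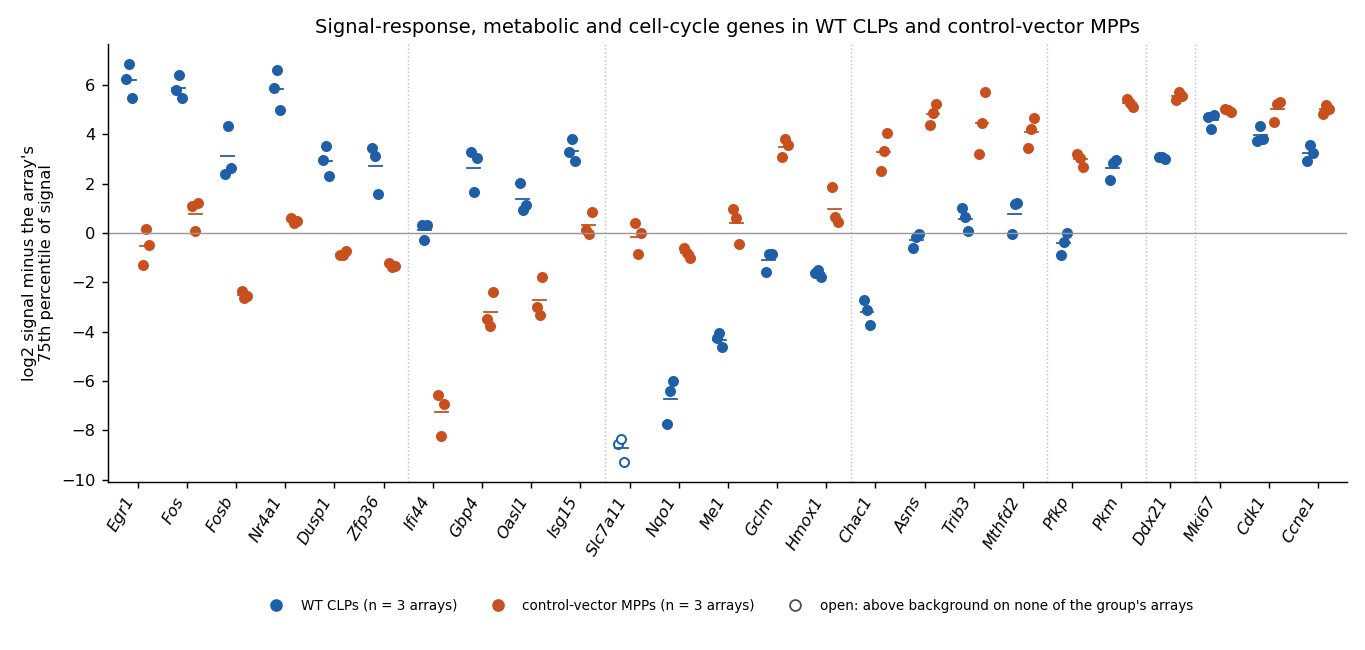
Level of immediate early, interferon, antioxidant, amino-acid response, glycolysis and cell cycle genes on each array (log2 signal minus the array's 75th percentile) for WT CLPs (blue) and control-vector MPPs (orange), 3 arrays each with a short line at the mean and open points where no array of the group was above background. CLPs lie above from Egr1 to Isg15 and MPPs above from Slc7a11 to Ddx21, while Mki67 and Cdk1 differ by -0.39 and -1.05.

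**Figure D4:**
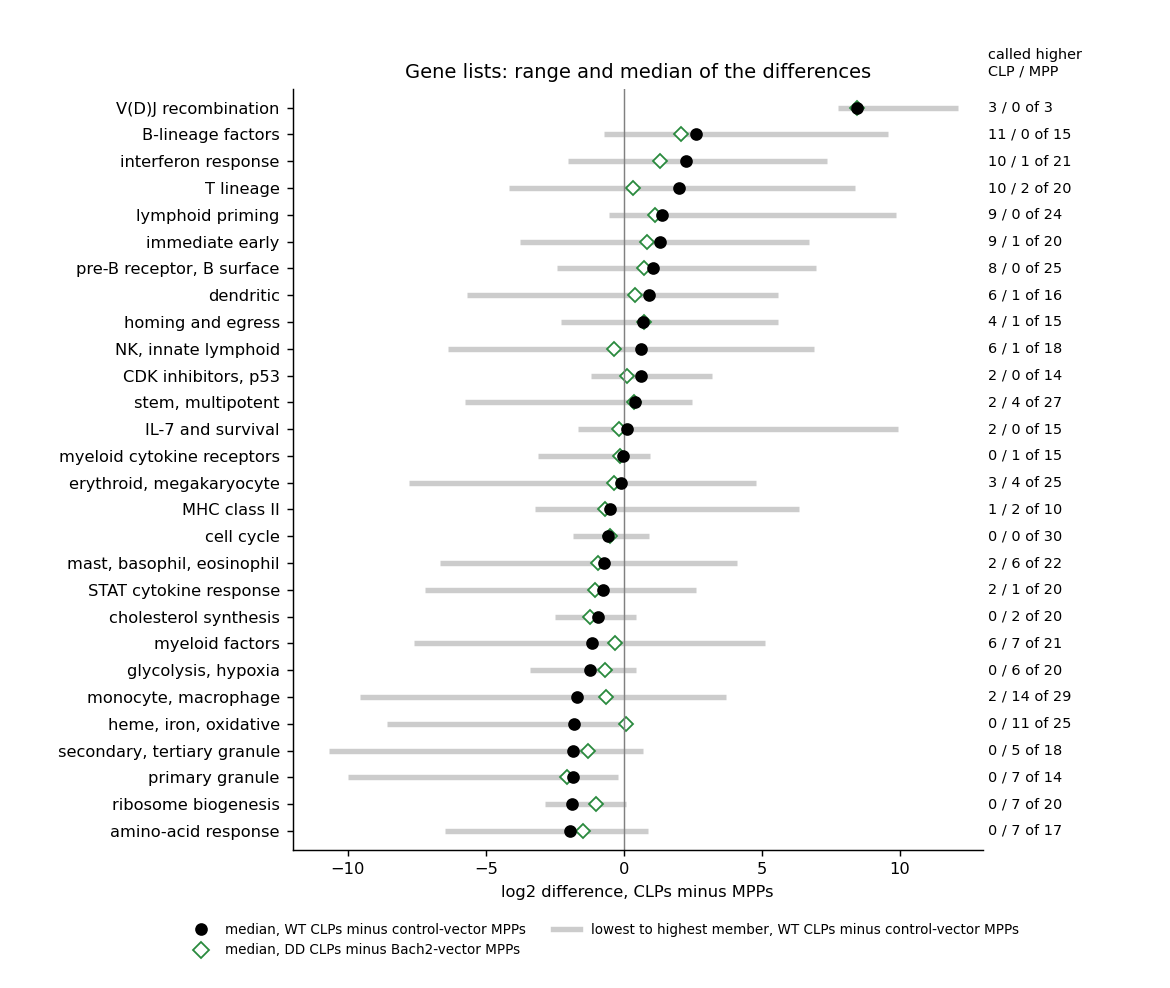
Log2 difference, WT CLPs minus control-vector MPPs, for each gene list: grey bars run from the lowest to the highest tested member, black points mark the median and green diamonds the median in DD CLPs minus Bach2-vector MPPs, with counts called at the right. Medians run from 8.44 for recombination genes to -1.94 for amino-acid response genes, and the 2 medians lie furthest apart for the heme and antioxidant list, at -1.79 and 0.06.

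Beyond the lists, the 15 widest named differences in each direction held genes less often spoken of in these cells. In CLPs, Ddx4, an RNA helicase of germ cells, stood at 2.23, 3.56 and 2.90 and in MPPs at -8.89, -8.08 and -5.10, with 1 MPP array above background, a 1221-fold difference (10.25 ± 0.89). The syndecan Sdc4 (8.58 ± 0.78), the progesterone receptor Pgr (8.53 ± 1.24) and the receptor kinase gene Mst1r (7.97 ± 0.36), each above background on 1 MPP array, and the monoamine transporter Slc18a1 (7.82 ± 0.38, with 2) were of the same order. Gprin3, Rflna and Rfx8 were not above background on any MPP array and were at least 172-fold, 142-fold and 84.6-fold higher in CLPs. In MPPs, Ccn3, a matricellular protein, stood at 0.39, 0.68 and 1.72 and was not above background on any CLP array, at least 254-fold higher. Dmkn, dermokine, stood at -5.23, -5.48 and -4.59 in CLPs and at 4.21, 4.00 and 4.53 in MPPs, a 650-fold difference (-9.34 ± 0.36). The eotaxin Ccl24 was at least 461-fold and the receptor Tarm1 at least 83.7-fold higher in MPPs. Stanniocalcin 2 (Stc2, -8.93 ± 0.61, with 1 CLP array above background), the stress protein Nupr1 (-8.21 ± 0.65, with 2), Mtus1 (-8.32 ± 0.92, with 2) and Emilin2 (-8.23 ± 0.52) completed the group with genes named earlier. None of these 30 genes overlapped between the groups, which the rule for a call fixes in advance.

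The second set of arrays shows how the named genes stood in CLPs and MPPs that the first set did not use. Genotype and vector differ there as well as cell type, the slides are shared with the first set, and the difference between the sets was not tested. In that set 1190 of 41989 probes tested were called higher in DD CLPs (2.83%) and 953 higher in Bach2-vector MPPs (2.27%). Of the 2014 probes called higher in WT CLPs, 1906 were tested again and 916 were called the same way, which is 45.5% of the first list and 77.0% of the second, and 1 was called the opposite way. Of the 1523 called higher in control-vector MPPs, 1454 were tested and 584 called the same way (38.3% of the first list and 61.3% of the second), with 9 opposite. The arrays were fully separated in the same direction for 76.2% of the retested CLP probes, against 11.9% of all probes, and for 79.9% of the retested MPP probes, against 15.1%. Of the 30 widest differences 29 were called the same way, and Mmp8, at -1.29 ± 0.81, was not. The MPP count of the second set fell to 457 without Bach2-vector replicate 2, 571 without replicate 1 and 597 without replicate 3, and the CLP count to 772 without replicate 2.

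Of the 11 B-lineage factors called in the first set, Ebf1 (8.72), Egr1 (5.11), Pou2af1 (4.20), Klf2 (3.94), Spib (3.17), Irf8 (2.11) and Klf3 (2.07) were called again. So were Ms4a3 (-6.99 ± 0.49), Adgre1 (-8.33 ± 1.01), Alox5 (-8.70 ± 1.27) and Cebpe (-7.14 ± 0.52). Other genes were far apart in the first set and not called in the second. Tfec went from -7.60 to -1.30 ± 0.73 (adjusted p = 0.362), Clec4d from -6.38 to -0.54 ± 0.51 and Gbp4 from 5.87 to 0.84 ± 0.54. Foxo1 was at 1.16 ± 0.37 with an adjusted p of 0.114 and Igll1 at 2.03 ± 0.63 with an adjusted p of 0.104. Klrd1 was at -1.08 ± 0.61, with DD CLPs at 4.01, 3.54 and 1.77 and Bach2-vector MPPs at 4.49, 4.53 and 3.55. For Tfec, the MPP values themselves were lower in the Bach2-vector cells, at -0.24, -0.02 and -2.40. The heme, iron and antioxidant list had 1 gene called higher in MPPs, Slc7a11 at -2.65 ± 0.36, and a median of 0.06, with Gclm at 0.53 ± 0.49, Hmox1 at 0.13 ± 0.43 and Srxn1 at 1.61 ± 0.43.

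Some genes that were level in the first set were apart in the second. Irf4, a factor of late B cells and of dendritic cells, stood at -2.33, -1.96 and -3.07 in DD CLPs and at 1.78, 1.23 and 1.95 in Bach2-vector MPPs (-4.10 ± 0.42), against 0.04 ± 0.41 in the first set. F13a1 was at 5.75 ± 0.78 and Ly6a, whose protein is in the gates, at 2.88 ± 0.41. In each the second-set arrays did not overlap.

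**Figure D5:**
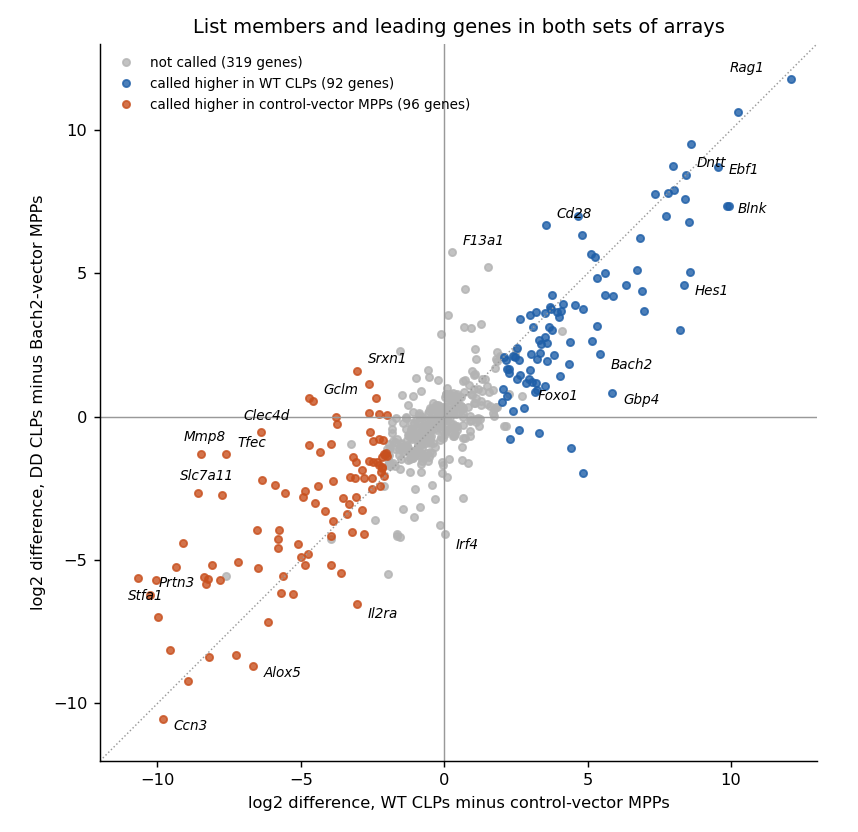
Log2 difference in DD CLPs minus Bach2-vector MPPs (vertical axis) against that in WT CLPs minus control-vector MPPs (horizontal axis), 1 point for each of 507 genes of the lists and the leading genes, coloured by the call in the first set, with a dotted line of equality. Rag1, Ebf1, Prtn3 and Alox5 lie near the line, Tfec and Clec4d near 0 on the vertical axis, and Irf4 at 0.04 and -4.10.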

How the data were processed

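Gene expression of bulk cells was measured on single-colour Agilent arrays of 62976 spots (3671 controls, 55681 other probes). The deposited values are background-corrected, processed spot intensity from Feature Extraction, version 10.7.3.1 per the file headers and 9.1 per the submitters' processing notes. A value table that the authors deposited repeats these intensity values. Log2 values were scaled by subtracting, on every array, the 75th percentile of its probes other than controls. Outlier spots were left out. Of the probes 26413 were named through RefSeq accessions (20018 genes), and 29268 have no name here. Of several probes of a gene, the one with the highest mean (21 arrays) was read.

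Probes well above background on at least 3 of 6 arrays, with at least 2 values a group, were fitted with limma 3.58.1 (lmFit, eBayes) in R 4.3.3 (with the package data.table, version 1.17.8), with Benjamini-Hochberg adjustment over all probes tested. Python 3.11.15, pandas 2.3.3, numpy 2.4.6 and matplotlib 3.10.9 were used for tables and figures. The fit was tested on simulated data with 50 changed probes at each fold. In the first set, 14.0% of 4-fold, 52.0% of 8-fold and 76.0% of 16-fold changes were called. In the second set the shares were 6.0%, 30.0% and 66.0%. Of 42261 unchanged probes in the first set, 1 was called. Far fewer probes were changed in the simulation than had an adjusted p under 0.05 in the data (6773 in the first set). The adjustment was therefore stricter in the simulation, and these shares do not measure how many real changes or false calls the comparison holds. A gene that was not called can still differ by 4-fold or more. Spots were not saturated (0), and 0 pairs of arrays were identical. The number of arrays limits the precision. Alternatives were other normalizations, filters, blocks, fold limits and leaving out each array.

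Named genes are Bach1 and Bach2, the 15 widest called differences each way with a plain symbol and above background on all 3 arrays of the higher group, up to 8 called members and 4 not called with the smallest p in each list, and fixed cell-type markers. Some of these are left out, and a few list members beyond the rule are named as examples, chosen after their values were seen. The members, lists and rules were chosen with earlier results of these data known. The lists are of general knowledge, and some genes stand in more than 1. A few genes are not reported here. Promoter windows come from RefSeq (GRCm38.p6), while the headers name mm9, so windows were matched by symbol only.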

Additional observations from a re-analysis of the deposited data

How the results depend on the processing

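The value table gave the same counts, and most other settings stayed within 1.5 times of them. Probes called higher in WT CLPs (2014) became 1310 with normexp background correction, on median spot signal, an alternative chosen after seeing the data. The planned version on mean spot signal was not run. The counts were 1012 and 891 over named genes with 1 probe each, where fewer probes are tested, and 654 higher in DD CLPs. They were 3395 and 3377 at a 2-fold limit. Leaving out 1 array gave 1532 to 2107 higher in WT CLPs, 1216 to 1484 higher in control-vector MPPs, 772 to 1128 higher in DD CLPs and 457 to 1099 higher in Bach2-vector MPPs. Same-numbered arrays correlated at 0.08, 0.20 and -0.09 in their deviations, so the numbers were not taken to pair them. With the replicate block the counts were 1973 and 1556, and 1097 and 933 in the second set. With the slide as a random block (correlation 0.47) they were 1604 and 1182, and 1018 and 770.

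Of 166 named genes called, 130 were called the same way under every setting in which they were tested. No difference of a called gene changed sign. Of the named genes not called, 14 changed sign under at least 1 setting, among them Camp (0.70, and -1.99 without WT CLP replicate 3) and Ly6a (-0.10, and 0.07 with quantile normalization). The cause of these moves was not tested. Levels near background limit how exactly the widest folds are known.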
